A study of Mus musculus with 8 samples.

Results

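The coreceptor genes Cd4, Cd8a and Cd8b1 were examined in T29 cells together with 6 genes that control the coreceptors or the choice between the CD4 and CD8 lineages, Runx1, Runx3, Zbtb7b, Tox, Gata3 and Themis. The 9 genes were chosen by name for their roles in T cells, with earlier results of these data known, so a count of calls among them is a description. All 9 were measured, by 26 probe sets, among 18193 genes and 45037 probe sets in all. T29 is a mouse thymic lymphoma line, and the series text describes the line as lacking Ikaros, the zinc finger transcription factor encoded by Ikzf1. The first group was Ik1ER cells in 4OHT, transduced with the retroviral vector MigR1-Ik1ER, which carries an inducible Ikaros protein, and given 100 nM 4-hydroxytamoxifen (4OHT) for 24 h. Ik1ER cells in ethanol had the same vector and the solvent for the same time. MigR1 cells in 4OHT and MigR1 cells in ethanol carried the vector MigR1 and had the same treatments. Each of the 4 groups had 2 Affymetrix arrays of total RNA, and all results come from 1 cell line. Nothing in the labels says whether the 2 arrays of a group stem from different cultures. A p-value here therefore measures the spread of arrays only, possibly a technical one, and their small number limits the precision.

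CD4 and CD8 are the coreceptors that bind major histocompatibility complex molecules beside the T cell receptor and bring the kinase LCK to it. CD4 binds class II molecules. CD8 binds class I molecules, on most thymus-derived T cells as a heterodimer of the chains encoded by Cd8a and Cd8b1. Thymocytes pass from a stage with neither coreceptor to one with both, and then keep one of them. Runx1 and Runx3 encode DNA-binding proteins that silence Cd4, with Runx3 acting mainly in CD8 lineage cells. Zbtb7b, which encodes ThPOK, opposes Runx3 and commits cells to the CD4 lineage. Gata3 and Tox encode transcription factors needed for CD4 lineage development, and Themis encodes an adaptor that tunes T cell receptor signals during selection.

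Promoter windows in the RefSeq-derived table (build GRCm38.p6) run from 250 bases before to 50 bases after an annotated gene start. They were present for 6 of the 9 genes, in 10 windows, and absent for Cd4, Cd8b1 and Tox. The 4 windows printed here belong to Cd8a, the only coreceptor gene with a window, to Themis, and to Runx3, whose 2 probe sets gave different readings. Capitals mark TGGGAA, a core of sites bound by Ikaros, and also TGTGGT and the related TGCGGT, which are cores of sites bound by RUNX proteins, on either strand. The reverse complements are TTCCCA for the Ikaros core and, for the RUNX cores, ACCACA and then ACCGCA. No match overlaps another in these windows.
Cd8a (chr6:71373177-71373476, plus strand): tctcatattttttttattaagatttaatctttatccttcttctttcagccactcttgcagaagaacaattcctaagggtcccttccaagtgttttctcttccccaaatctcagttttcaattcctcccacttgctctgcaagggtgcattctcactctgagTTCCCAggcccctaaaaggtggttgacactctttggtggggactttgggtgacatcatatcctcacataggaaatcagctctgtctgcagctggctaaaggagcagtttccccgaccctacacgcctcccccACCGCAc
Themis (chr10:28668110-28668409, plus strand): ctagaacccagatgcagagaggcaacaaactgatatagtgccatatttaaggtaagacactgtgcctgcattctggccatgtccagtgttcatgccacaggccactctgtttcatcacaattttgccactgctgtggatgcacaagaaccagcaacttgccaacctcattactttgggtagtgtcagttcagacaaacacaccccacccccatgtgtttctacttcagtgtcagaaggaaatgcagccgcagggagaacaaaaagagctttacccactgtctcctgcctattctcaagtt
Runx3, upstream start (chr4:135120395-135120694, plus strand): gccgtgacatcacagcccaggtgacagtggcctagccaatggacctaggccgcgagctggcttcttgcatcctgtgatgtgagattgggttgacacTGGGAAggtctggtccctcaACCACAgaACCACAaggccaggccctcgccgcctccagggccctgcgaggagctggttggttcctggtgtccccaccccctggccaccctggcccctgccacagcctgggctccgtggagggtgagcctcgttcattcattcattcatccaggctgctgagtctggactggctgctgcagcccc
Runx3, downstream start (chr4:135152295-135152594, plus strand): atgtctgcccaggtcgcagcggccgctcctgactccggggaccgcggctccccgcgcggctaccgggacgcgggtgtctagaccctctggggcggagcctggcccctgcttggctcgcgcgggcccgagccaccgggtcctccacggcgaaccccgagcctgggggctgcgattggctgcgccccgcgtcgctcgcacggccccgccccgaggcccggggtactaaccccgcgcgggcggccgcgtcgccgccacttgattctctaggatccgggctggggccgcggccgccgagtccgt
The Cd8a window holds 1 Ikaros core, at position -89 from the gene start, and 1 RUNX core at position 43. The upstream window of Runx3 holds 1 Ikaros core at position -154 and 2 RUNX cores at positions -134 and -126. Neither the Themis window nor the downstream window of Runx3 holds either motif in these letters, and nor does a second, overlapping window of Themis that is not printed. Also not printed are windows of Zbtb7b with an Ikaros core at position -196 and a RUNX core at -89. A window of Runx1 holds RUNX cores at 28 and 36. Of all 32851 windows of 300 bases in the table, 25.6% hold the Ikaros core and 22.4% a RUNX core, so a match is common and is a description of the sequence only.

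Values are log2 expression as made by the authors with RMA. A gene is represented by its probe set of highest mean, and a difference was called when its adjusted p in limma was under 0.05. The 27 Bacillus control probe sets, which mouse RNA should not bind, had a highest mean of 5.27, used here as a gauge of background. Of 8 measured T cell markers 7 lay above it, with Cd3e, Cd3d and Cd3g averaging 10.69, 13.42 and 12.79, while Cd5 averaged 4.89. A control of RNA quality, the excess of the 3' over the 5' probe set of the transferrin receptor, set both replicate 2 arrays of Ik1ER cells apart. It was 1.91 and 1.66 there, in 4OHT and ethanol, against 1.15 to 1.39 on the other 6 arrays. The mean of the hybridization controls was 8.86 on Ik1ER 4OHT replicate 2, against 9.41 to 9.54 on the others, and that of the 18S probe sets was 10.07 on Ik1ER ethanol replicate 2, against 8.54 to 9.18.

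The CD8 chains rose in Ik1ER cells given 4OHT. Cd8a (probe set 1451673_at) read 11.60 and 10.47 in Ik1ER cells in 4OHT, against 9.43 and 8.95 in Ik1ER cells in ethanol, with 9.60 and 9.37 in MigR1 cells in 4OHT and 9.47 and 9.30 in MigR1 cells in ethanol. Both arrays of Ik1ER cells in 4OHT were thus above all the others, and the other 3 groups overlapped. The difference between 4OHT and ethanol in Ik1ER cells was 1.84 on the log2 scale (SE 0.32, 3.59-fold, limma adjusted p = 0.0160). Cd8b1 (1426170_a_at) read 10.66 and 9.75 in Ik1ER cells in 4OHT, against 8.87 and 8.42 in Ik1ER cells in ethanol. MigR1 cells read 8.89 and 8.90 in 4OHT and 8.79 and 8.73 in ethanol. Both arrays of Ik1ER cells in 4OHT were again above all the others. Cd8b1 rose by 1.56 (SE 0.26, 2.94-fold, limma adjusted p = 0.0140). Since whole cultures were measured, more cells with a transcript and more transcript per cell cannot be told apart.

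Cd4 rose as well. It (1419696_at) read 7.91 and 7.49 in Ik1ER cells in 4OHT, against 7.10 and 6.87 in Ik1ER cells in ethanol, with 7.13 and 7.02 in MigR1 cells in 4OHT and 7.12 and 7.03 in MigR1 cells in ethanol. Again only Ik1ER cells in 4OHT lay apart from the remaining groups, which ranged over 6.87 to 7.13. The rise was 0.72 (SE 0.14, 1.64-fold, limma adjusted p = 0.0255). Whether the CD8 chains changed more than Cd4 was not tested.

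Themis (1436423_at), the signalling adaptor of the set, read 11.36 and 11.49 in Ik1ER cells in 4OHT, against 10.81 and 11.10 in Ik1ER cells in ethanol. It lay at 10.97 and 11.00 in MigR1 cells in 4OHT and at 10.96 and 10.92 in MigR1 cells in ethanol, all within the range of Ik1ER cells in ethanol. Its rise of 0.47 (SE 0.10, 1.38-fold, limma adjusted p = 0.0419) had an adjusted p just under the threshold. In this comparison 4 of the 9 genes were therefore higher and 0 lower, where 5.35% of all 18193 genes were called, 2.84% of them higher and 2.51% lower. The median difference of the 9 genes was 0.54, beside a median of -0.0039 over all genes. The arrays did not overlap between 4OHT and ethanol for 7 of the 9 genes, 6 higher and 1 lower, where 42.7% of all genes did not overlap, 21.1% higher and 21.6% lower.

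The call of Themis was lost when any array other than Ik1ER ethanol replicate 2 was left out, with an adjusted p of at most 0.178, and it was also lost without both replicate 2 arrays of the Ik1ER line (0.0515). Without Ik1ER ethanol replicate 2 those of Cd8a, Cd8b1 and Cd4 were lost (limma adjusted p = 0.104, 0.0909 and 0.150), which left 1 of the 9 genes called. Cd4 also lost its call when the replicate 1 array of either Ik1ER group was left out (0.0592 in ethanol and 0.0722 in 4OHT).

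**Figure D1:**
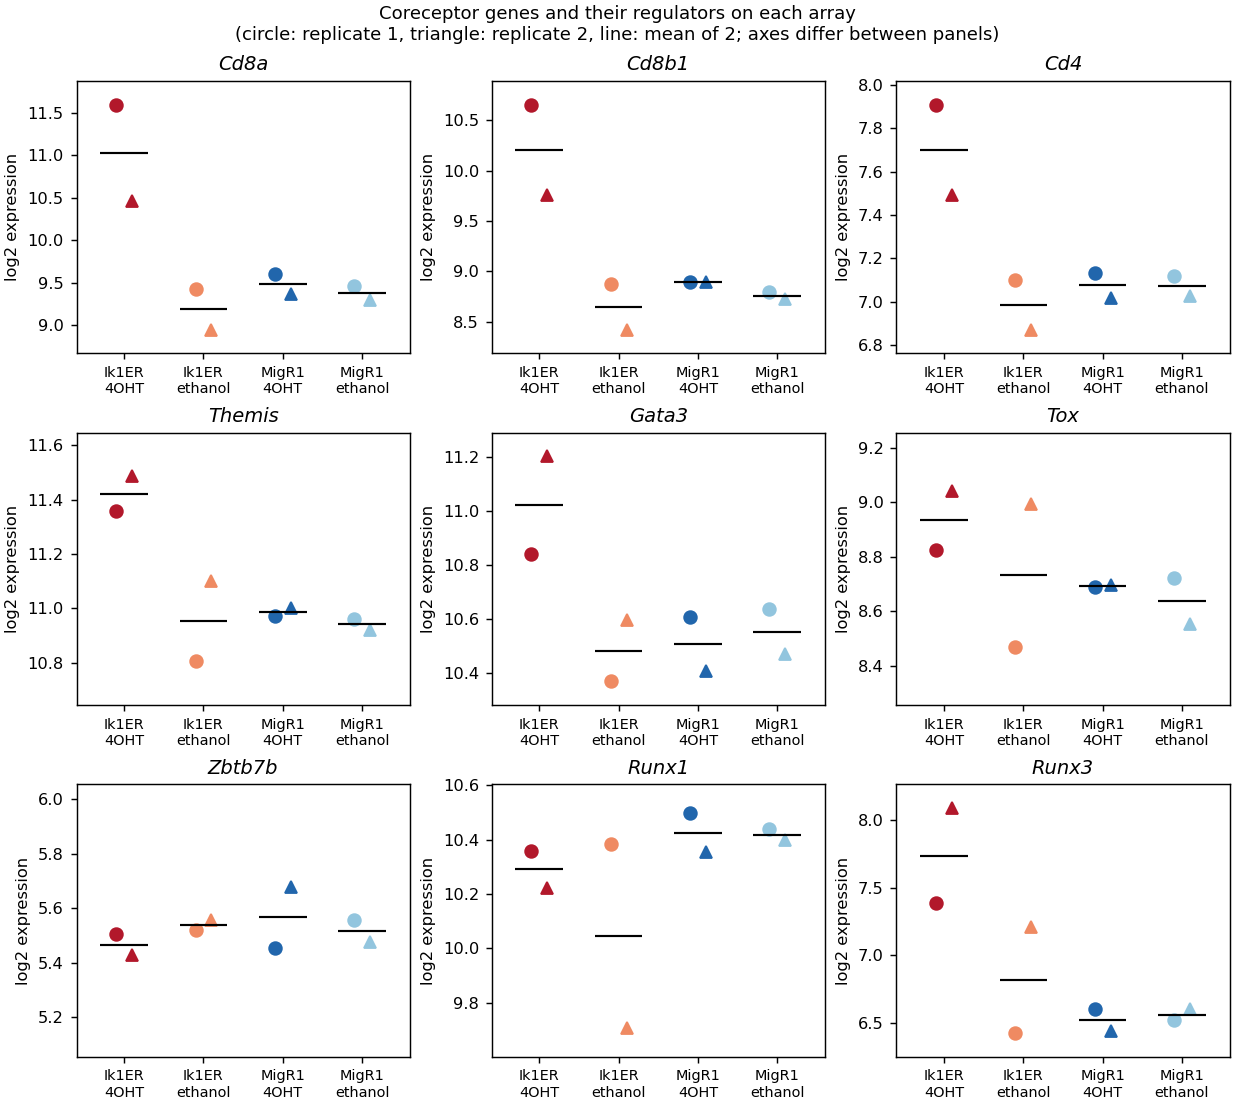
Log2 expression (vertical axis, different in each panel) of the 9 genes on each of 8 arrays, by group (horizontal axis), with circles for replicate 1, triangles for replicate 2 and a line at the mean of 2 arrays. Cd8a, Cd8b1 and Cd4 are highest on both arrays of Ik1ER cells in 4OHT, and within the Ik1ER line their triangles lie below the circles while those of Runx3, Gata3, Tox and Themis lie above.

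Of the CD4 lineage factors, Gata3 was not called, although its arrays did not overlap. Gata3 (1448886_at) read 10.84 and 11.20 in Ik1ER cells in 4OHT, against 10.37 and 10.59 in Ik1ER cells in ethanol, with 10.61 and 10.41 in MigR1 cells in 4OHT and 10.63 and 10.47 in MigR1 cells in ethanol. The difference was 0.54 (SE 0.14, limma adjusted p = 0.0766, 95% interval 0.21 to 0.86). It was called with the trend and robust settings of eBayes (0.0381) and without Ik1ER 4OHT replicate 1 (0.0421).

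Tox (1425483_at) read 8.83 and 9.04 in Ik1ER cells in 4OHT, against 8.47 and 8.99 in Ik1ER cells in ethanol, so that the groups overlapped. MigR1 cells read 8.69 and 8.70 in 4OHT and 8.72 and 8.55 in ethanol. The difference in Ik1ER cells was 0.20 (SE 0.16, limma adjusted p = 0.611), with a 95% interval of -0.17 to 0.58. It was -0.06 without Ik1ER ethanol replicate 1 and 0.46 without Ik1ER ethanol replicate 2, and its direction thus rests on single arrays.

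Zbtb7b was near background on all arrays. It (1455071_at) read 5.50 and 5.43 in Ik1ER cells in 4OHT, against 5.52 and 5.56 in Ik1ER cells in ethanol, with 5.45 and 5.68 in MigR1 cells in 4OHT and 5.56 and 5.48 in MigR1 cells in ethanol. These values are close to the highest Bacillus control mean of 5.27, and differences of so dim a probe set may be compressed. The difference in Ik1ER cells was -0.07 (SE 0.09, limma adjusted p = 0.771, 95% interval -0.28 to 0.14).

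Of the RUNX genes, Runx3 was read by 2 probe sets. The brighter one (1440275_at) read 7.39 and 8.09 in Ik1ER cells in 4OHT, against 6.42 and 7.21 in Ik1ER cells in ethanol, with 6.60 and 6.43 in MigR1 cells in 4OHT and 6.52 and 6.60 in MigR1 cells in ethanol. The arrays of Ik1ER cells in 4OHT were above all the others, but the arrays within each Ik1ER group differed by 0.70 in 4OHT and 0.79 in ethanol. The difference between 4OHT and ethanol in Ik1ER cells was 0.92 (SE 0.28, 1.90-fold, 95% interval 0.29 to 1.56) and was not called (limma adjusted p = 0.115). Without both replicate 2 arrays of the Ik1ER line it was 0.96 and was called (adjusted p = 0.0255). With 1 array left out it was 0.53 without Ik1ER ethanol replicate 1, 0.57 without Ik1ER 4OHT replicate 2 and up to 1.32 without Ik1ER ethanol replicate 2, and was not called in any of the 8 cases (adjusted p of at most 0.403).

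Runx1 (1422865_at) read 10.36 and 10.22 in Ik1ER cells in 4OHT, against 10.38 and 9.71 in Ik1ER cells in ethanol, with 10.50 and 10.35 in MigR1 cells in 4OHT and 10.44 and 10.40 in MigR1 cells in ethanol. The low value is that of Ik1ER ethanol replicate 2, and all others lie between 10.22 and 10.50. The difference in Ik1ER cells was 0.25 (SE 0.19, limma adjusted p = 0.592), and the alternative without that array gave -0.09. Without Ik1ER ethanol replicate 1 it was 0.58 and was called (adjusted p = 0.0469).

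For 8 of the 9 genes the replicates of the Ik1ER line differed in the same direction in 4OHT and in ethanol. Replicate 2 minus replicate 1 was -1.13 in 4OHT and -0.47 in ethanol for Cd8a, and below 0 also for Cd8b1 (-0.90 and -0.45), Cd4 (-0.42 and -0.23) and Runx1 (-0.13 and -0.67). It was above 0 for Runx3 (0.70 and 0.79), Gata3 (0.36 and 0.23), Tox (0.21 and 0.52) and Themis (0.13 and 0.29). Zbtb7b had -0.07 in 4OHT and 0.04 in ethanol. The median size of this gap over the 9 genes was 0.36 in 4OHT and 0.45 in ethanol, beside 0.13 and 0.10 over all genes. In MigR1 cells no gap of the 9 genes was larger than 0.23 in size. The replicate 2 arrays are those that stand apart in the array controls, whose part in these gaps and in the calls was not tested.

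Genes with several probe sets offered further readings. Each of the 5 probe sets of Cd8a rose with 4OHT in Ik1ER cells when every probe set was tested on its own, with differences of 1.84, 1.90, 1.70, 1.78 and 0.52 and limma adjusted p-values of 0.00791 to 0.0443. All 5 also had both 4OHT arrays above both ethanol arrays, as had 21.1% of all genes, each read by 1 probe set. The share over all probe sets was not computed. The 5 probe sets read 1 gene on the same arrays and are not independent. The smallest difference was that of 1440164_x_at. The suffix _x_at marks probes that may bind other transcripts, and 1440811_x_at, which has it too, differed by 1.78. In MigR1 cells the same 5 probe sets differed by -0.05 to 0.13.

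The second probe set of Cd4 was dimmer, with a mean of 5.46. It read 6.42 and 5.51 in Ik1ER cells in 4OHT, against 5.55 and 4.69 in Ik1ER cells in ethanol, and these overlapped. MigR1 cells read 5.58 and 5.46 in 4OHT and 5.44 and 5.03 in ethanol, so that Ik1ER cells in 4OHT did not lie apart from them. Its difference of 0.85 (SE 0.34) in Ik1ER cells was close in size to that of the first, but was not called (limma adjusted p = 0.339). In MigR1 cells it differed by 0.28, and the difference between the 2 effects was 0.56 (SE 0.49, limma adjusted p = 0.847).

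The 4 probe sets of Themis differed by 0.44 to 0.93 in Ik1ER cells, and by -0.33 to 0.20 in MigR1 cells. In Ik1ER cells 3 of them were higher without overlap, as were 21.1% of all genes, each read by 1 probe set. None of the 4 was called among all probe sets (limma adjusted p of at least 0.0819). For 1436423_at and 1439719_at Ik1ER cells in 4OHT lay above all other arrays. The probe set with 0.93, 1443192_at, read 7.55 and 8.12 there, overlapping 7.30 and 7.91 in MigR1 cells in ethanol. Likewise 1442022_at read 9.30 and 8.52, overlapping 8.67 and 8.74 in MigR1 cells in 4OHT. The 2 probe sets of Runx3 gave different readings, a contrast that was not tested. The dimmer one, 1421467_at, read 6.30 and 6.37 in Ik1ER cells in 4OHT, against 6.28 and 6.27 in Ik1ER cells in ethanol, a difference of 0.06 (SE 0.07, limma adjusted p = 0.808), beside 0.92 for 1440275_at. Which transcripts of Runx3 each probe set reads, and from which of the 2 starts shown above, was not examined.

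The 3 probe sets of Tox (0.14 to 0.20), the 2 of Zbtb7b (-0.07 and -0.04) and the 6 of Runx1 (-0.08 to 0.25) were all not called. In all, 7 of the 26 probe sets were called, against 2.50% of all 45037, and all 7 belong to coreceptor genes.

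**Figure D2:**
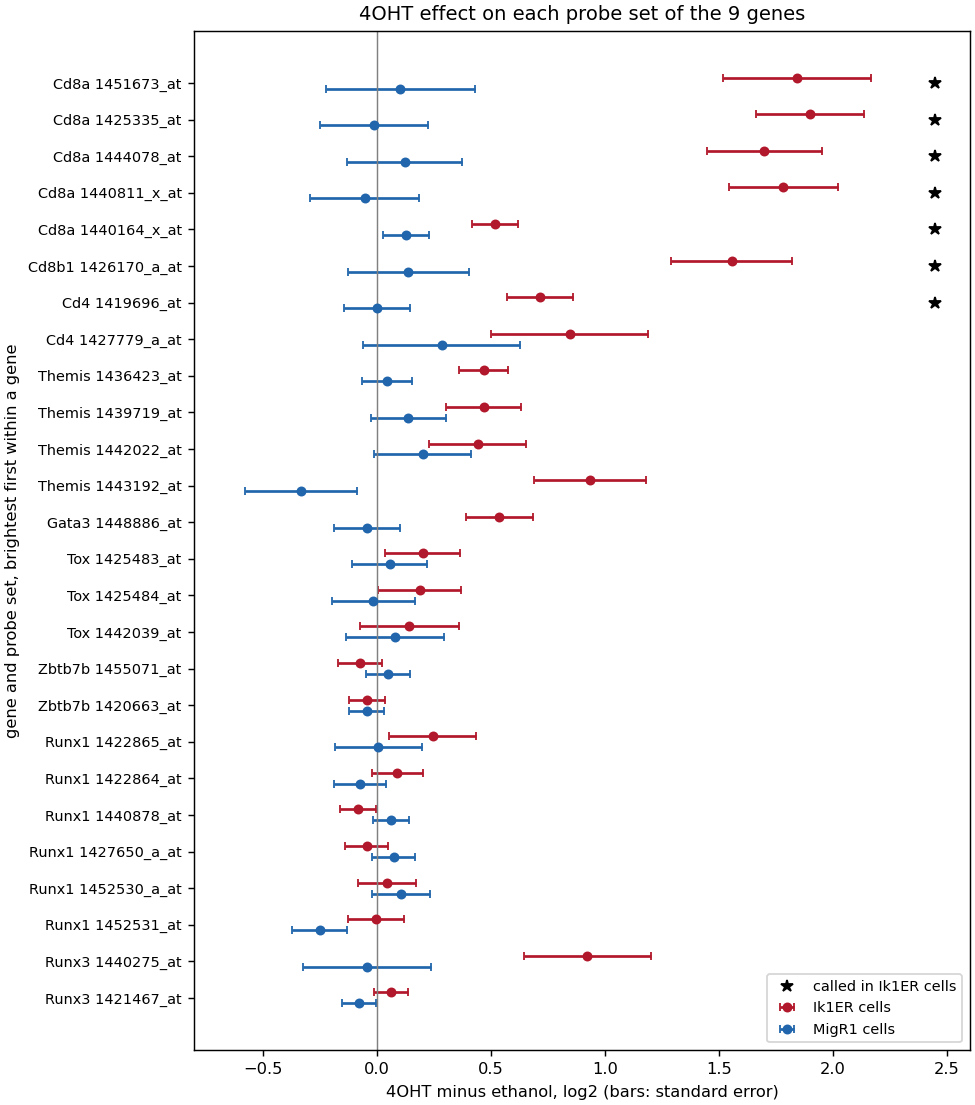
Difference between 4OHT and ethanol (log2, horizontal axis) for each of the 26 probe sets in Ik1ER cells (red) and MigR1 cells (blue), with bars for the standard error and stars for those called in Ik1ER cells. All 5 Cd8a probe sets are starred, the 2 Runx3 probe sets lie apart at 0.92 and 0.06, and the MigR1 points lie between -0.33 and 0.28.

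The vector line served as the control for 4OHT itself. In MigR1 cells 0 of the 9 genes were called between 4OHT and ethanol, where limma called 0.0055% of all genes, and 0 had an unadjusted p under 0.05, beside 2.12% of all genes. The arrays of Cd8b1 and Themis did not overlap, both higher in 4OHT, making 2 of the 9 genes, where 29.8% of all genes did not overlap, 16.7% higher and 13.1% lower. The differences were 0.10 for Cd8a (95% interval -0.64 to 0.85), 0.14 for Cd8b1 (-0.47 to 0.74) and 0.00 for Cd4 (-0.32 to 0.33), and the other 6 genes differed by -0.04 to 0.06. These intervals are wide, and the values do not show that 4OHT had no effect.

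The difference between the effects in Ik1ER and MigR1 cells was tested directly. It was 1.74 for Cd8a (SE 0.46, limma adjusted p = 0.143), 1.42 for Cd8b1 (SE 0.37, adjusted p = 0.143) and 0.71 for Cd4 (SE 0.20, adjusted p = 0.170). It was 0.97 for Runx3, 0.58 for Gata3 and 0.42 for Themis, with adjusted p-values of 0.410, 0.296 and 0.304. Of the 9 genes 0 were called, where 1.26% of all genes were, 0.621% with a larger and 0.638% with a smaller effect in Ik1ER cells, and 6 of the 9 had an unadjusted p under 0.05, beside 11.1% of all genes. The test over all arrays thus called for none of the 9 genes an effect of 4OHT that differs between the lines. Without Ik1ER 4OHT replicate 2, the array with the lower CD8 readings, the difference was 2.31 for Cd8a, 1.87 for Cd8b1 and 0.92 for Cd4. Leaving out the lower array of that group raises these values by construction. They were the largest with 1 array left out, and the smallest were 1.17, 0.97 and 0.51.

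Between the lines in 4OHT, 4 of the 9 genes were higher in Ik1ER cells and 0 lower, where 5.10% of all genes were called, 2.92% higher and 2.18% lower. They were Cd8a by 1.55 (SE 0.32, 2.92-fold, limma adjusted p = 0.0340), Cd8b1 by 1.31 (SE 0.26, adjusted p = 0.0294), Cd4 by 0.63 (SE 0.14, adjusted p = 0.0453) and Runx3 by 1.22 (SE 0.28, 2.33-fold, adjusted p = 0.0466). The Runx3 value is that of 1440275_at. The dimmer probe set of Runx3, 1421467_at, differed by 0.07 (SE 0.075) and was not called (limma adjusted p = 0.767 among all probe sets). Themis (0.44, adjusted p = 0.0579) and Gata3 (0.51, adjusted p = 0.0917) were not called. The arrays of 7 of the 9 genes did not overlap between the lines, all higher in Ik1ER cells, where 44.7% of all genes did not overlap, 22.1% higher and 22.6% lower. This comparison shares the arrays of Ik1ER cells in 4OHT with the first one. All 4 calls were lost when any 1 MigR1 array was left out, with adjusted p-values of at most 0.248 for Cd4, 0.200 for Cd8a, 0.157 for Cd8b1 and 0.241 for Runx3. Cd4 was also lost without Ik1ER 4OHT replicate 1 (0.104) or either Ik1ER ethanol array (0.0548), and Runx3 without Ik1ER 4OHT replicate 2 (0.174). Without Ik1ER 4OHT replicate 1 the differences of Cd8a and Cd8b1 were 0.98 and 0.86.

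In ethanol none of these genes was called between the lines. Of the 9 genes 0 were called, where limma called 0% of all genes, and 0 of the 9 had an unadjusted p under 0.05, beside 5.25% of all genes. The largest difference was that of Runx1, at -0.37 (SE 0.19, limma adjusted p = 0.920), and its 2 Ik1ER arrays lay below both MigR1 arrays. It was the 1 gene of the 9 without overlap, where 37.5% of all genes had none, 20.7% higher and 16.8% lower. Without Ik1ER ethanol replicate 2 the Runx1 difference was -0.04. A second probe set of Runx1, 1422864_at, read 9.30 and 8.99 in Ik1ER cells in ethanol, against 9.57 and 9.59 in MigR1 cells in ethanol. Its difference was -0.43 (SE 0.11) and was not called (limma adjusted p = 0.636 among all probe sets). The remaining probe sets of Runx1 differed by -0.20 to -0.01. The other 8 genes differed by -0.19 to 0.26. Ik1ER cells in 4OHT had the highest group mean for Cd8a, Cd8b1, Cd4, Themis, Gata3, Tox and Runx3. Among the other 3 groups neither of the 2 contrasts run, 4OHT in MigR1 cells and the lines in ethanol, called any of these genes.

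**Figure D3:**
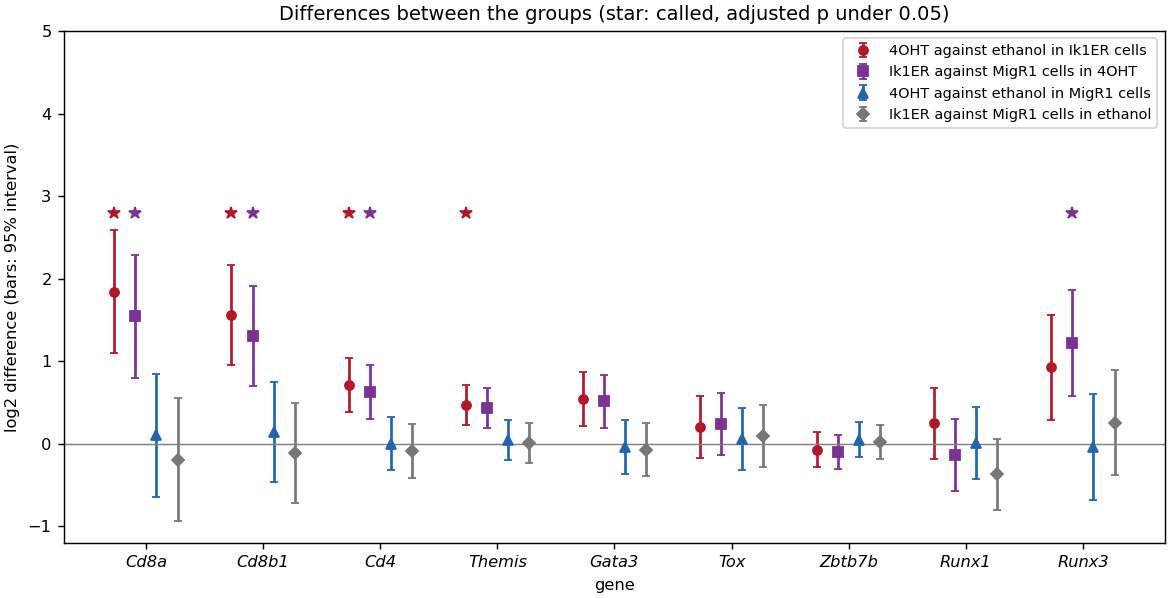
Log2 differences (vertical axis) of the 9 genes in 4 comparisons, with bars for the 95% interval and stars for those called. Cd8a, Cd8b1 and Cd4 are starred in both comparisons that hold Ik1ER cells in 4OHT, Themis in one and Runx3 in the other, and no gene is starred in MigR1 cells or between the lines in ethanol.

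Of 25 other genes that control coreceptor genes 22 were measured, and 1 rose, 1 fell and 20 were not called with 4OHT in Ik1ER cells (median 0.09). The share of all genes called in this comparison, against which this count and those of the next 3 lists are to be read, was 5.35%, 2.84% higher and 2.51% lower. Ikzf3, the Ikaros relative Aiolos, rose by 0.43 (SE 0.07, limma adjusted p = 0.0109). Patz1, which encodes MAZR, a repressor of Cd8 gene expression in early thymocytes, fell by 0.38 (SE 0.09, adjusted p = 0.0473) to a mean of 9.67 ± 0.03 in Ik1ER cells in 4OHT, against 10.05 ± 0.13 in Ik1ER cells in ethanol (SD, n = 2). MigR1 cells lay between, at 9.92 ± 0.09 in 4OHT and 9.86 ± 0.04 in ethanol. The call of Patz1 was lost when any 1 of the 8 arrays was left out (adjusted p of at most 0.231), and that of Ikzf3 without either Ik1ER ethanol array (at most 0.0722). Cbfb, the partner of all RUNX proteins (-0.11), the chromatin remodeller gene Smarca4 (0.29), Satb1 (0.14) and Bcl11b (0.18) were not called. Without both replicate 2 arrays of the Ik1ER line 0 of the 22 were called.

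Among 17 genes of coreceptor and lineage signalling, 14 were measured, and 2 rose, 0 fell and 12 were not called (median -0.05), beside 5.35% of all genes called. Socs1, a feedback inhibitor of cytokine receptors that restrains CD8 lineage signals, rose by 0.63 (SE 0.07, limma adjusted p = 0.00295). Grb2, which encodes the adaptor that binds the Themis protein, rose by 0.43 (SE 0.08, adjusted p = 0.0223). Socs1 was called whichever array was omitted, and Grb2 lost its call without any of 3 Ik1ER arrays (ethanol replicate 1, 4OHT replicate 1 or 4OHT replicate 2, adjusted p of at most 0.134). Zap70, the kinase of the receptor's zeta chain (-0.04), Il7r (-0.08) and Ptpn6 (-0.28) were not called. Without both replicate 2 arrays of the Ik1ER line Socs1 was called and Grb2 was not.

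Among 15 thymocyte stage genes 14 were measured, and 2 rose, 2 fell and 10 were not called (median 0.10), beside 5.35% of all genes called. Cd44, a marker of early progenitors and of memory T cells, rose by 1.76 (SE 0.22, limma adjusted p = 0.00451), and Cd27, a costimulatory receptor, by 0.98 (SE 0.18, adjusted p = 0.0212). Ptcra, which encodes a chain of the pre-T cell receptor, fell by 0.61 (SE 0.13, adjusted p = 0.0408), and Dntt, whose enzyme adds bases at receptor gene joints, fell by 0.52 (SE 0.08, adjusted p = 0.0104). Cd44 averaged 4.66 in Ik1ER cells in ethanol, below the gauge of background, so that the size of its rise may be compressed. The same holds for Cd69, which averaged 4.74 there and rose by 1.06 but was not called (limma adjusted p = 0.111). The largest difference of this list, 1.92 for Ccr9 (SE 0.53), was not called either (limma adjusted p = 0.0882). The SD of Ccr9 was 0.48 to 0.97 within the groups. Cd44 was called whichever array was omitted, Dntt lost its call without Ik1ER ethanol replicate 2 (0.0705), Cd27 without any Ik1ER array (at most 0.131), and Ptcra in 7 of the 8 cases (at most 0.206). Without both replicate 2 arrays of the Ik1ER line Cd44 and Cd69 were called, both higher, and Cd27, Ptcra and Dntt were not.

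Of 15 genes that go with helper or cytotoxic lineages, all measured, 3 rose, 0 fell and 12 were not called (median 0.14), beside 5.35% of all genes called. The costimulatory receptor gene Icos rose by 1.24 (SE 0.23, limma adjusted p = 0.0197), the integrin gene Itgae, a target of Runx3 in CD8 T cells, by 1.01 (SE 0.15, adjusted p = 0.00949) and the perforin gene Prf1 by 0.52 (SE 0.10, adjusted p = 0.0222). The mean of Itgae in Ik1ER cells in ethanol was 4.83, again below the gauge of background. Icos and Prf1 averaged 5.50 and 5.44 there, close to it. Itgae lost its call without Ik1ER ethanol replicate 2 (0.0669), Icos without that array or Ik1ER 4OHT replicate 1 (at most 0.123) and Prf1 without any Ik1ER array (at most 0.125). Without both replicate 2 arrays of the Ik1ER line 0 of the 15 were called. In MigR1 cells 4OHT gave 0 calls in these 4 lists.

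**Figure D4:**
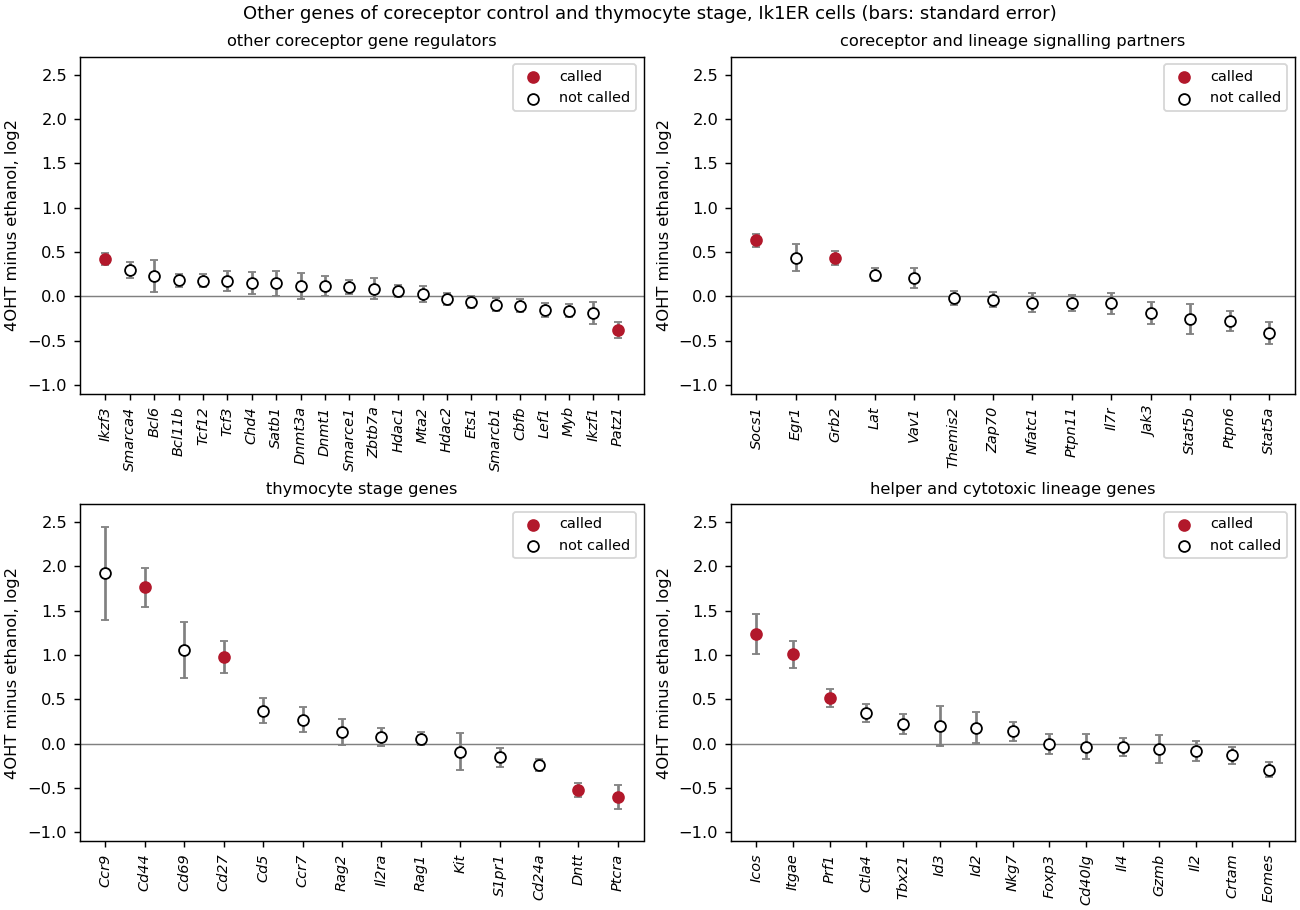
Difference between 4OHT and ethanol in Ik1ER cells (log2, vertical axis) for the measured genes of 4 lists, ordered by size, with bars for the standard error, filled points for called genes and open points for those not called. Most regulators of coreceptor genes lie near 0, and the called genes at the edges include Ikzf3 (0.43), Patz1 (-0.38), Socs1 (0.63) and Icos (1.24).

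Genes with a pattern like that of the coreceptors were sought among 10706 others brighter than the gauge of background, as those with the smallest root mean square difference over the 8 arrays after each gene was centred on its own mean. The gene closest to Cd8a was Cd8b1 (0.14 on the log2 scale), followed by the channel gene Mcoln3 (0.19) and by Pdlim4, which encodes a cytoskeletal adaptor (0.22). Closest to Cd8b1 were Cd8a (0.14), Pdlim4 (0.14) and Txk, which encodes a T cell kinase (0.19). For Cd4 they were Cth (0.06), an enzyme gene of cysteine synthesis, Rtkn2 (0.06) and the T cell surface molecule gene Cd7 (0.06). The differences between 4OHT and ethanol in Ik1ER cells were 1.97 for Mcoln3, 1.42 for Pdlim4 and 1.21 for Txk, the last of which was not called (limma adjusted p = 0.0532). Txk averaged 6.16 in Ik1ER cells in 4OHT and was below the gauge of background in the other 3 groups (4.95 to 5.14), so that it passed the filter through the one group where it was high. The differences were 0.67 for Cth, 0.78 for Rtkn2 and 0.69 for Cd7. A list found in this way holds genes with changes of similar size on the same arrays.

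Of the 8 T cell markers Cd2 rose, by 0.87, and Cd3e, Cd3d and Cd3g fell, by 0.43, 0.49 and 0.69 (limma adjusted p = 0.0140, 0.0151, 0.0419 and 0.00522), with 4OHT in Ik1ER cells. Cd2 lay below the gauge of background in Ik1ER cells in ethanol (5.20) and in MigR1 cells, so that the size of its rise is uncertain. Cd3g kept its call with any 1 array omitted, and lost it without both replicate 2 arrays of Ik1ER cells (0.0578), and Cd3e, Cd3d and Cd2 lost theirs in 2, 7 and 3 of the 8 cases (at most 0.0988, 0.207 and 0.0908). Their list mean was 10.48 to 10.50 in Ik1ER cells in 4OHT and 10.44 to 10.45 in Ik1ER cells in ethanol. With 4OHT in Ik1ER cells 5.35% of all genes were called, 2.84% higher and 2.51% lower. The counts of calls in this paragraph are to be read beside that share, at which 0 calls in a list this short are common. Markers of other cells were examined because dendritic cells can also express Cd8a. Of 9 dendritic cell markers 0 were called with 4OHT in Ik1ER cells and 3 lay above the gauge of background. The 3 above it were H2-Ab1 (8.94), Flt3 (6.59) and Cd74 (5.74). The others lay below it, among them Itgax at 5.16, Batf3 at 4.90 and Xcr1 at 3.95. The mean level over this list was 5.38 to 5.50 in Ik1ER cells in 4OHT and 5.53 on both arrays of Ik1ER cells in ethanol. Of 6 measured B cell markers 0 were called and the list averaged 4.83 to 4.88 in Ik1ER cells in 4OHT and 4.72 to 4.83 in Ik1ER cells in ethanol. Of 8 myeloid markers Itgam was higher, at levels below the gauge, and Lyz2 and Cd14 were lower, with list means of 4.91 to 4.95 in Ik1ER cells in 4OHT and 5.11 to 5.12 in Ik1ER cells in ethanol. Lyz2 averaged 4.98 in Ik1ER cells in 4OHT, also below the gauge. The calls of Lyz2 and Itgam were lost without some single arrays, while Cd14 kept its call whichever array was left out. Of 7 measured markers of NK cells and cytotoxic lymphocytes 2 were higher, Gzma (0.96, limma adjusted p = 0.00475) and Prf1. Gzma kept its call with any single array left out, and lost it without both replicate 2 arrays of Ik1ER cells. The list means were 5.67 to 5.81 in Ik1ER cells in 4OHT and 5.54 to 5.55 in Ik1ER cells in ethanol. Gzma averaged 13.07 and Prf1 5.63, the 2 above the gauge of background, while Ncr1 averaged 4.22 and Klrd1 3.31. The part of these lists in the coreceptor results was not tested. Of 4 erythroid and 7 stromal markers 0 were called, with list means of 5.35 to 5.45 and 5.01 to 5.06 in Ik1ER cells in 4OHT, against 5.41 to 5.53 and 5.18 to 5.21 in Ik1ER cells in ethanol.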

How the data were processed

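Total RNA from 8 samples was labelled with biotin for Affymetrix arrays, as stated in the labels' protocols. The deposited table gives log2 expression for each array. Per the submitters' processing notes, the authors used RMA, which sets arrays to a common distribution, compresses changes of dim probe sets and hides a shift of all RNA. Its version was not given in the sources used here, nor whether the arrays were processed together or on which genome build. Gene names came from the platform annotation, in which 34945 of 45101 probe sets have 1 symbol, 932 several and 9160 none, and 64 are controls. No detection calls were used and dim genes were kept.

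The probe set of highest mean stood for its gene, and outside the 9 genes those ending in _x_at were taken where no other was present. Group means were fitted with lmFit and eBayes of limma 3.58.1 in R 4.3.3 to all 8 arrays, with 4 residual degrees of freedom, and p-values were adjusted by Benjamini and Hochberg over 18193 genes in each of 5 contrasts. Tests of single probe sets were adjusted over 45037. The fit was tested on simulated data. Errors are limma standard errors, or SD where stated. The 9 genes and the lists were chosen with earlier results of these data known. The 9 genes were named in full, and from each list the genes called. A few uncalled ones, Gzma, Cd69, Ccr9 and other markers were chosen after their values were seen. For each coreceptor gene the 3 of most similar pattern were named. List members without a probe set of their own were not analysed here.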

Additional observations from a re-analysis of the deposited data

Results flagged for a closer look

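Fitted to all 8 arrays, the test of the difference between the effects of 4OHT in the lines called 5 of the genes named above. None of them was among the 9. The same test called 1.26% of all 18193 genes. Many of the genes above were named because they were called with 4OHT in Ik1ER cells, and the test reuses those arrays. The count is therefore a description of chosen genes and cannot be read against that share. Socs1 changed by 0.63 in Ik1ER cells and 0.04 in MigR1 cells, a difference of 0.591 on the log2 scale (SE 0.10, limma adjusted p = 0.0420). For Itgae the difference was 1.22 (SE 0.22, limma adjusted p = 0.0448) and for Cd2 1.22 (SE 0.21, adjusted p = 0.0382). Both genes lay below the gauge of background of 5.27 in 3 of the 4 groups. Itgae averaged 5.84 in Ik1ER cells in 4OHT, 4.83 in Ik1ER cells in ethanol, 4.72 in MigR1 cells in 4OHT and 4.93 in MigR1 cells in ethanol. Cd2 averaged 6.06, 5.20, 4.91 and 5.27 in the same groups. The sizes of these differences, and the changes in MigR1 cells of -0.21 for Itgae and -0.35 for Cd2, are therefore not measured above background. Cd3g changed by -0.69 in Ik1ER cells and 0.01 in MigR1 cells, a difference of -0.704 (SE 0.13, limma adjusted p = 0.0490), and Cd14 by -1.26 and 0.04, a difference of -1.30 (SE 0.14, limma adjusted p = 0.00627). Cd14 was called whichever array was left out (adjusted p of at most 0.0401). For Socs1 the call was lost when any 1 of the 8 arrays was left out (at most 0.185), for Itgae and Cd3g in 7 of the 8 cases (at most 0.178 and 0.197) and for Cd2 in 6 (at most 0.154).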

How the results depend on the processing

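With 2 arrays a group the calls rest on little. For 4OHT in Ik1ER cells 973 genes and 4 of the 9 were called, 412 and 0 with the arrays of the groups compared alone, 388 and 4 without both replicate 2 arrays of the Ik1ER line (Runx3 in place of Themis), and 439 to 827 genes and 1 to 3 of the 9 with 1 array left out. The call of Cd4 was also lost with the mean over its probe sets (adjusted p = 0.105), and that of Themis with arrays centred on their medians (0.0587). Between the lines in 4OHT 928 genes and 4 of the 9 were called, 429 and 0 with the groups' own arrays, 0 of the 9 with every probe set on its own, 594 genes without both replicate 2 arrays of Ik1ER, and 242 to 812 genes and 0 to 4 of the 9 with 1 array left out. The difference of effects gave 229 genes, 439 with the trend and robust settings, 100 without both replicate 2 arrays (and 2 of the 9), and 51 to 269 genes and 0 to 3 of the 9 with 1 left out (it needs all groups, so the groups' own arrays alone were not run). The MigR1 contrast gave 1 gene, and 0 with the replicate block, dim genes left out, repeated quantile normalization, the mean over probe sets, _x_at not set apart, every probe set on its own, the groups' own arrays or both replicate 2 arrays of Ik1ER left out, and 0 to 1 with 1 left out. Between the lines in ethanol 0 genes were called, or 1 with the mean over probe sets.

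The replicate numbers are shared by the groups without a stated pairing, and replicate deviations correlated at 0.45 between the Ik1ER groups, 0.27 between the MigR1 groups and -0.07 to 0.10 across lines. With the replicate number as a block, 1151 genes were called for 4OHT in Ik1ER cells and 1082 between the lines in 4OHT, 1 of the 9 (Cd8a, adjusted p = 0.0438) was called in the difference of effects, and Themis was called between the lines in 4OHT (0.0439). Over 45 values of the 9 genes and all alternatives, 731 of 801 kept their side of the threshold, 51 lost a call and 19 gained one. Among called values 0 turned sign, and among values not called the sign changed in 39 cases. Only values called in the main fit can lose a call, 4 for 4OHT in Ik1ER cells and 4 between the lines in 4OHT. The 51 losses all fall on these. The 731 include values that were never called, so their share does not measure how stable the calls were. The cause of the changed calls was not tested. The lists' counts without both replicate 2 arrays were chosen after seeing the data.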
